A study of Mus musculus with 6 samples.

Results

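The non-clustered protocadherins Pcdh7, Pcdh1, Pcdh12, Pcdh17 and Pcdh19 were followed by gene symbol through RNA-seq of mouse thymic endothelial cells (ECs), as 5 of the 24457 genes on chromosomes. Pcdh7 was taken up because its FPKM climbed stepwise across the EC subsets, that is, it was chosen by the values described here, and its levels are given without a test. The other members were chosen with earlier results of these data known. Wildtype female C57BL/6 mice, 4 to 6 weeks old per the labels, gave thymi that were digested and sorted for CD31+CD45-EpCAM- ECs. These were divided by Ly6C and by Selp (P-selectin) into type I (Ly6C+Selp-), type II (Ly6C+Selp+) and type III (Ly6C-Selp+) ECs, with 2 libraries per type and 6 in all. No group carried a transgene or a treatment. The sources do not say whether the libraries of a type came from separate mice or pools, so p-values measure only the spread between these libraries, which may be technical.

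Protocadherins are the largest subfamily of cadherins, the calcium-dependent adhesion molecules whose ectodomain is a row of cadherin repeats. Most are known from the nervous system, where they bind like partners on neighbouring cells, weakly compared with classical cadherins, and sort cells and axons. The clustered members (alpha, beta and gamma) lie in a tandem array in which variable first exons join shared downstream exons, whereas the non-clustered members are separate genes. Among the latter, Pcdh1, Pcdh7 and Pcdh9 have the longer ectodomain and a cytoplasmic motif that binds protein phosphatase, whereas Pcdh10, Pcdh17, Pcdh18 and Pcdh19 have the shorter ectodomain and a tail that can recruit the WAVE regulatory complex, a driver of branched actin. Pcdh12, also called VE-cadherin-2, is an endothelial and trophoblast protocadherin that does not signal through catenins.

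Among the transcripts of the sort genes, Selp and Ly6c1 were high and low in the types as labelled. Ly6c2 was low throughout and did not follow the label (4.8 and 1.71 in type I, 3.78 and 4.32 in type III ECs). Ptprc (CD45), against which the cells were sorted, was at 10.6 and 2.88 in type I, 6.05 and 4.47 in type II and 28.9 and 7.81 in type III ECs. Epcam stayed between 0.417 and 4.32, and Pecam1 (CD31) between 496 and 867. Selp was at an FPKM of 7.87 and 5.20 in type I, 313 and 416 in type II and 526 and 657 in type III ECs, and Ly6c1 at 1010 and 692, 522 and 351, and 99.6 and 59.7. FPKM is fragments scaled by transcript length and by library depth, so levels may be set side by side between genes. The fragments behind the FPKM, estimated from the deposited intervals, summed to between 1452476 and 2423171 per library, and 3 fragments corresponded to a median FPKM between 0.314 and 0.541. All 10 general endothelial markers were measured in every type, with a summed FPKM between 2140 and 2820, but they were not even. Kdr, the main VEGF receptor, was at 206 and 173 in type I, 103 and 84.7 in type II and 63.4 and 70.2 in type III ECs and fell between type I and type III ECs (log2 difference -1.49, limma adjusted p = 0.0079), and lost its call without type III replicate 1 (adjusted p = 0.082) or type III replicate 2 (adjusted p = 0.058). Markers of other cells were present. The B cell and myeloid list summed to 219 and 30.9 in type I, 80.8 and 32.0 in type II and 368 and 68.7 in type III ECs, and the thymocyte list to 66.5 and 19.2, 46.3 and 33.6, and 107 and 56.5. The lymphatic endothelial list summed to 24.0 and 18.7, 12.4 and 9.85, and 31.4 and 13.5. Of its 4 tested genes 0 passed between type I and type III ECs (limma, 3 at an unadjusted p below 0.05). With the replicate block Prox1 passed as higher (1.54, adjusted p = 0.029, from 0.058) and Flt4 as lower (-1.06, adjusted p = 0.019, from 0.080). Prox1 and Lyve1 passed the filter only through type III ECs, where they were highest, so nothing is read from their tests. The erythroid list summed to 58.2 and 116, 43.9 and 21.0, and 0 and 10.8, and its globin gene Hba-a1, which shares sequence with a near-identical copy, was at 55.6 and 43.8 in type I, 7.19 and 7.57 in type II and 0 and 2.84 in type III ECs (log2 difference -4.68 between type III and type I ECs, adjusted p = 0.0017). In bulk RNA, fewer cells of a kind and less RNA per cell cannot be told apart.

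Pcdh7, known as NF-protocadherin and able to bind the SET protein and protein phosphatase, went from the lowest of the 5 members in type I to the highest in type III ECs. Its FPKM was 1.51 and 0.566 in type I, 11.3 and 19.0 in type II and 39.0 and 47.8 in type III ECs. No library of a type overlapped with a library of the type beside it. The values rested on about 24 and 11 fragments in type I, 144 and 350 in type II and 452 and 781 in type III ECs. The type I values are therefore the least precise, with Cufflinks 95% intervals of 0.895 to 2.12 and 0.220 to 0.912. The means were 1.04 ± 0.666, 15.1 ± 5.43 and 43.4 ± 6.24 (SD, n = 2 each), a ratio of 14.6 between type II and type I, of 2.87 between type III and type II and of 41.8 between the ends.

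On the scale of log2(FPKM + 1), which understates the change of low genes, type III ECs were 4.48 above type I ECs in Pcdh7, and type II ECs were 2.98 above type I ECs. The step from type II to type III was 1.50. Within the first replicates the 2 steps were 2.29 and 1.70, and within the second replicates 3.67 and 1.29. The larger step on this scale was thus the one between the Ly6C+ subsets, from Selp- to Selp+. Type II ECs lay at 0.67 of the way from type I to type III on the log2 scale and at 0.33 of the way in linear FPKM, so the place of type II depended on the scale. Of all 11717 genes tested, 4.14% had every library in the same rising order of types; the rule chose Pcdh7 for that order, and nothing is read from it. The B cell and myeloid list was higher in type III than in type I ECs within both replicate numbers (219 to 368 and 30.9 to 68.7), as was the thymocyte list (66.5 to 107 and 19.2 to 56.5). The lymphatic markers Prox1 (0.324 and 0.519 in type I, 3.05 and 3.22 in type III ECs) and Lyve1 (0 and 0, 12.4 and 1.07) were also higher there. So was Reln, at low values that were not tested (0.111 and 0, 1.31 and 0.180). Flt4 of the same list was lower (20.0 and 16.7, 9.45 and 7.15), and Pdpn overlapped (3.50 and 1.40, 5.18 and 1.90). The part of other cells in the levels of Pcdh7 was not tested.

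**Figure D1:**
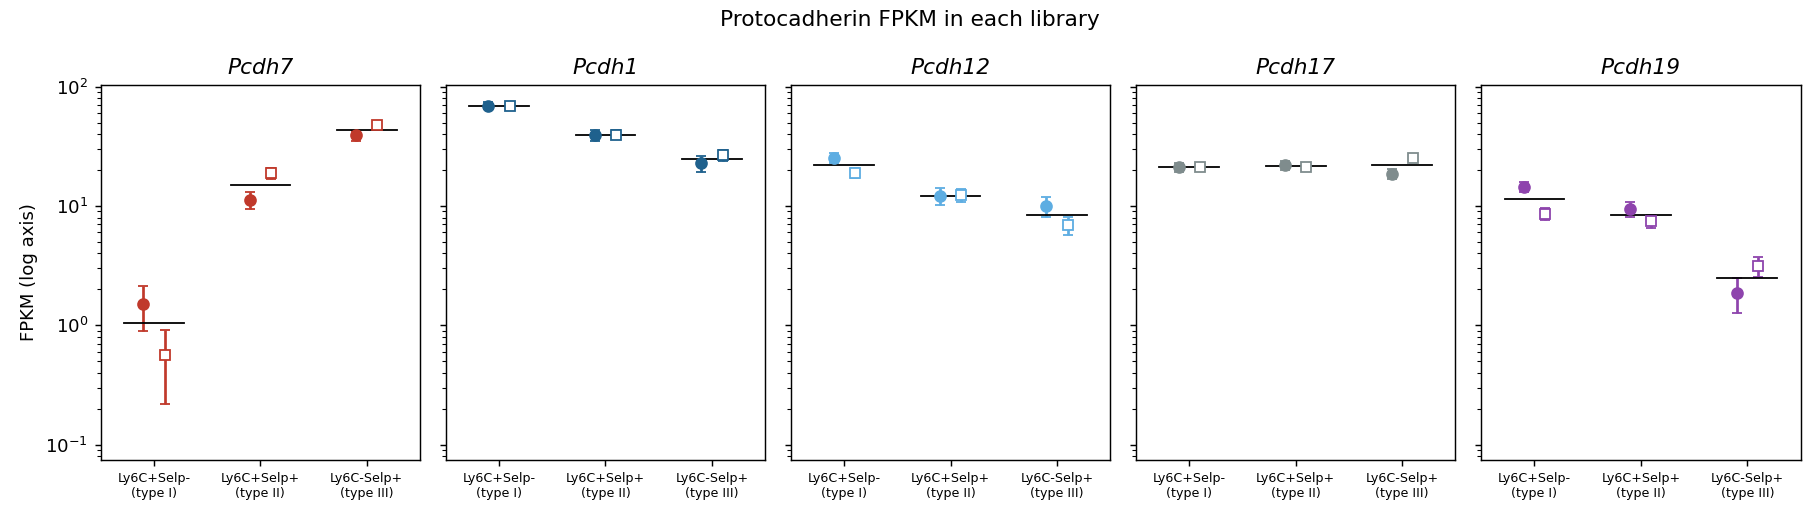
FPKM (log axis) of Pcdh7, Pcdh1, Pcdh12, Pcdh17 and Pcdh19 in the 6 libraries of type I, II and III ECs. Filled circles are replicate 1, open squares replicate 2, horizontal lines the means of a type, and bars are the Cufflinks 95% intervals of each library; Pcdh7 climbs from 0.566 to 47.8, Pcdh1 falls from 69.5 to 22.7 and Pcdh17 stays between 18.5 and 25.4.

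In the files Pcdh7 spans chr5:58109260-58523479 of mm9, on the plus strand. In GENCODE annotation of that assembly it has 2 coding transcripts over 411.3 kb, and 75.9% of the longest one is a single exon. The FPKM is per gene, so these transcripts were not separated. The sequence before the start is shown for the members with an entry in the RefSeq promoter table (build GRCm38.p6, another build than the files), so that Pcdh7 can be read beside Pcdh17 and Pcdh19, whose levels followed other patterns; Pcdh1 and Pcdh12 had no entry. Each window is 190 bases that end 60 bases short of the RefSeq start, and capitals mark the motifs found on either strand among the CCAAT box, the GC box GGGCGG, the TATA box TATAAA, the RBPJ motif GTGGGAA, the E-box CACGTG, the purine repeat GAGAGAG and the NF-kB consensus. GAGAGAG was added after the Pcdh7 sequence had been seen.
Pcdh7, chr5:57717831-57718020, plus strand: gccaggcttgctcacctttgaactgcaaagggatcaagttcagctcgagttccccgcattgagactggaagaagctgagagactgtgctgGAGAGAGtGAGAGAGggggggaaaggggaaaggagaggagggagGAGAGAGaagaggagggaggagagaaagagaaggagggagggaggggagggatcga
Pcdh17, chr14:84443313-84443502, plus strand: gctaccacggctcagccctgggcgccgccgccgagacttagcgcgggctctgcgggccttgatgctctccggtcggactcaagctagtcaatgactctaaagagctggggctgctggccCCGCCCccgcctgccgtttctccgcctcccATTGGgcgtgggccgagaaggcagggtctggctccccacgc
Pcdh19, chrX:133689054-133689243, minus strand: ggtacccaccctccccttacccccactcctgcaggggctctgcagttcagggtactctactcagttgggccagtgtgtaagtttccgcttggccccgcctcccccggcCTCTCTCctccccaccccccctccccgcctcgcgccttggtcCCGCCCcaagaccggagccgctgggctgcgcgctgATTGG
The Pcdh7 window has 3 separate GAGAGAG matches, a GC content of 56.8% and 3 CG dinucleotides. The Pcdh17 and Pcdh19 windows both have a GC content of 69.5%, with 17 and 11 CG dinucleotides, and each holds 1 CCAAT and 1 GGGCGG, which the Pcdh7 window does not. Pcdh19 also holds 1 GAGAGAG, on the opposite strand. Over windows of the same length before 27025 genes, 27.2% hold CCAAT, 22.8% GGGCGG and 6.45% GAGAGAG, and the median is a GC content of 51.1% with 4 CG dinucleotides. None of the 3 windows holds TATAAA (9.07% of all windows), GTGGGAA (4.14%), CACGTG (4.06%) or the NF-kB consensus (2.87%). A match is a run of letters and not a known site.

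Pcdh1, Pcdh12 and Pcdh19 were lower in type III than in type I ECs, and Pcdh17 did not pass the test. Of the 4 members other than Pcdh7, 3 fell, against 4.14% of the 11717 genes tested that passed in either direction and 2.05% that passed as lower (limma, Benjamini-Hochberg adjusted p below 0.05). Because these members were chosen with earlier results of these data known, no enrichment is read from that count. The lower calls were 240 genes, but 425 when the libraries were scaled to the same summed FPKM and 99 without type III replicate 1. The 3 members also had groups that did not overlap, as 17.1% of all genes tested did in that direction. Between type II and type I ECs 0 of the 4 passed (limma, 0.393% of all genes), with groups that did not overlap for 2 of the 4 as lower (20.6% of all genes) and 1 as higher (13.0%). Between type III and type II ECs 0 of the 4 passed (limma, 0.222% of all genes), and 3 of the 4 were lower without overlap (13.3%). The counts at an unadjusted p below 0.05 were 2 of the 4 in each of these comparisons, Pcdh1 and Pcdh12 in the first and Pcdh1 and Pcdh19 in the second. With the replicate number as a block, 8.29%, 1.56% and 1.95% of all genes passed in the 3 comparisons, and the calls of the 4 members were the same. The comparisons share libraries and are not independent of one another.

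Pcdh1, which binds SMAD3 in airway epithelium and is the entry receptor of some hantaviruses on endothelium, was the most abundant member in type I and type II ECs. Its FPKM was 69.5 and 68.3 in type I, 39.3 and 39.6 in type II and 22.7 and 26.6 in type III ECs, on 184 to 975 fragments. The 3 types were in order without overlap, and replicates of type I differed by less than the fall to type II. Type III ECs were 2.79-fold lower than type I ECs, a log2 difference of -1.45 (SE 0.23, 95% interval -1.97 to -0.93, limma adjusted p = 0.0085). The difference between type II and type I ECs was -0.79 (adjusted p = 0.31), and that between type III and type II ECs was -0.66 (adjusted p = 0.38). The type III to type I difference was -1.57 within the first and -1.33 within the second replicates. It lost its call when type III replicate 1 was left out (-1.34, adjusted p = 0.091) or type III replicate 2 (-1.56, adjusted p = 0.053).

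Pcdh12 had the same order at a lower level. Its FPKM was 25.3 and 18.9 in type I, 12.1 and 12.3 in type II and 9.98 and 6.91 in type III ECs, on 121 to 425 fragments. Type III ECs were 2.62-fold lower than type I ECs (log2 difference -1.30, SE 0.29, 95% interval -1.96 to -0.63, limma adjusted p = 0.043). The differences were -0.79 between type II and type I ECs (adjusted p = 0.53) and -0.50 between type III and type II ECs (adjusted p = 0.64). This is the least firm of the 3 falls, because leaving out any 1 of the 6 libraries ended the call, with differences between -1.53 and -1.06 and adjusted p between 0.076 and 0.22. Pcdh1 and Pcdh12 are neighbours in the genome, 57.3 kb apart on chromosome 18 and both on the minus strand, with 2 other genes between them in the annotation. All libraries of both genes were in falling order of type, which held for 3.63% of the genes tested.

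Pcdh19, an X-linked epilepsy gene whose product pairs with N-cadherin, was lower chiefly in type III ECs. Its FPKM was 14.4 and 8.59 in type I, 9.35 and 7.42 in type II and 1.87 and 3.12 in type III ECs, on 39 to 411 fragments. Type I and type II overlapped, and both were above type III. Type III ECs were 4.61-fold lower than type I ECs (log2 difference -1.82, SE 0.35, 95% interval -2.62 to -1.02, limma adjusted p = 0.021). The difference between type II and type I ECs was -0.38 (adjusted p = 0.95), and that between type III and type II ECs was -1.44 (95% interval -2.24 to -0.64, adjusted p = 0.18). On the log2 scale type II ECs thus lay at 0.21 of the way from type I to type III in Pcdh19, against 0.67 in Pcdh7, 0.55 in Pcdh1 and 0.61 in Pcdh12. Whether these places differ between genes was not tested. The call of Pcdh19 was lost without type I replicate 1 (-1.48, adjusted p = 0.13), without type III replicate 1 (-1.56, adjusted p = 0.15) and without type III replicate 2 (-2.08, adjusted p = 0.054).

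Markers of pericytes and smooth muscle cells, which wrap vessels, were set beside the 3 members that fell. The summed FPKM of the 9 markers was 597 and 247 in type I, 511 and 339 in type II and 107 and 163 in type III ECs. Of the 9, 4 fell in type III against type I ECs (2.05% of all genes tested passed as lower). These were Pdgfrb, the receptor that recruits pericytes (39.0 and 24.2 to 6.40 and 9.43, log2 difference -1.85, limma adjusted p = 0.013), Notch3 (-1.73, adjusted p = 0.021) and the potassium channel subunits Kcnj8 (-3.69, adjusted p = 0.014) and Abcc9 (-2.38, adjusted p = 0.014). Rgs5 was at 346 and 114 in type I, 284 and 137 in type II and 48.6 and 45.4 in type III ECs. It did not pass (-2.06, limma adjusted p = 0.057) but did with the replicate block (adjusted p = 0.0051), with which 5 of the 9 passed (8.29% of all genes). At an unadjusted p below 0.05 there were 7, with Acta2 as higher. Acta2 and Myh11, of smooth muscle, were at 13.7 and 7.53 and at 17.7 and 9.40 in type I and at 16.9 and 33.8 and at 14.8 and 32.9 in type III ECs. None of the 9 was at 0 in every library, and the list's median difference was -1.73, against 0.08 over all genes tested. Between type II and type I ECs the median was -0.05, against -0.06 over all genes. There 0 of the 9 passed (limma, 0.393% of all genes). Acta2 and Myh11 were at 1.6 and 1.29 in that comparison (limma adjusted p = 0.18 and 0.42), Pcdh1 and Pcdh12 both at -0.79 and Pcdh19 at -0.38. Between type III and type II ECs the list's median was -1.68, against 0.14 over all genes. Again 0 of the 9 passed (limma, 0.222% of all genes), with 7 at an unadjusted p below 0.05. With the replicate block 5 passed (1.95% of all genes). Pcdh1, Pcdh12 and Pcdh19 were at -0.66, -0.50 and -1.44 between these types. Between the replicates of type I the marker sum differed from 597 to 247 while Pcdh1 was at 69.5 and 68.3, Pcdh12 at 25.3 and 18.9 and Pcdh19 at 14.4 and 8.59. Kdr and the erythroid Hba-a1 also fell between type I and type III ECs. The part of these cells and of erythroid RNA in the 3 falls was not tested. Some marker calls were also lost with 1 library left out, which lowered the number of calls over all genes as well. Pdgfrb lost its call without type I replicate 1 (-1.52, adjusted p = 0.073) or type III replicate 1 (-1.61, adjusted p = 0.11). Notch3, Kcnj8 and Abcc9 also lost theirs without type I replicate 1 (adjusted p = 0.11, 0.098 and 0.075) or type III replicate 1 (adjusted p = 0.15, 0.082 and 0.091), Notch3 without type I replicate 2 (adjusted p = 0.056), Abcc9 without type III replicate 2 (adjusted p = 0.066), and all 3 with no filter on low values (adjusted p = 0.072, 0.080 and 0.067).

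Pcdh17, known from presynaptic assembly and from axon bundling, was measured at nearly one level throughout. Its FPKM was 21.2 and 21.4 in type I, 22.0 and 21.4 in type II and 18.5 and 25.4 in type III ECs, on 389 to 895 fragments. The replicates of type III ECs stood below and above all other libraries. The log2 difference between type III and type I ECs was 0.03 with a 95% interval of -0.56 to 0.61 (limma adjusted p = 0.98), so differences within these bounds cannot be told from the spread. Its sign turned under the 3 scalings (-0.12 to -0.07) and without type III replicate 2 (-0.19). It was 0.03 between type II and type I ECs (-0.56 to 0.62) and 0.00 between type III and type II ECs (-0.59 to 0.59).

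**Figure D2:**
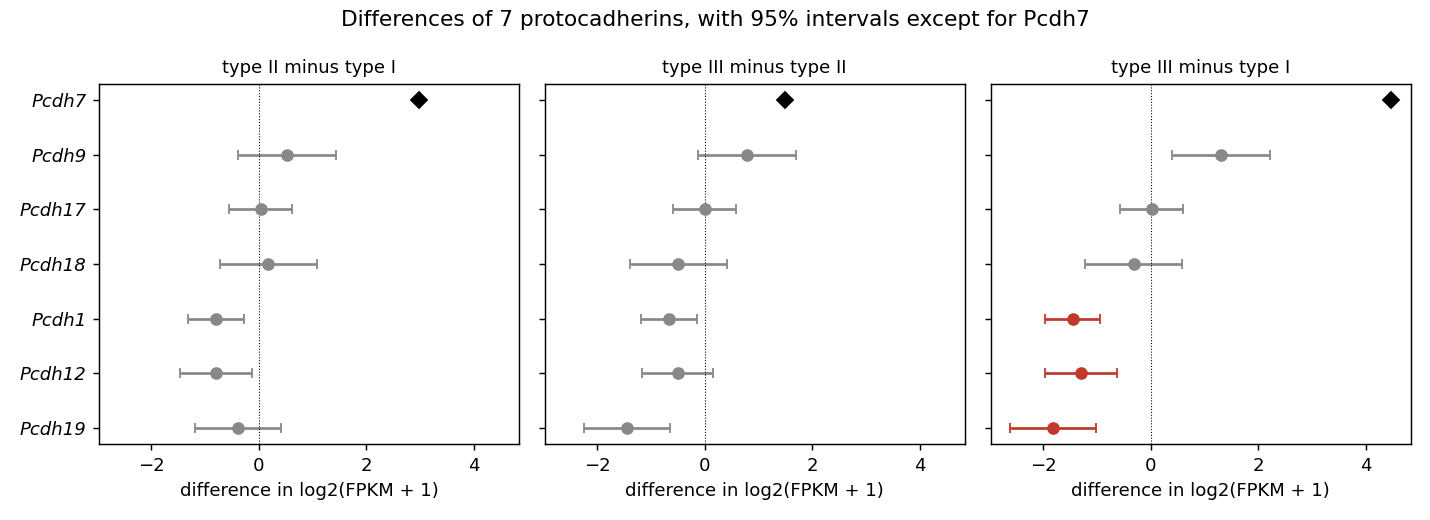
Differences in log2(FPKM + 1) of 7 tested non-clustered protocadherins in the 3 comparisons of EC types. Points are fitted differences and bars their 95% limma intervals; red marks adjusted p below 0.05, grey the others, and black diamonds Pcdh7, which has no test or interval. In type III against type I ECs, Pcdh1, Pcdh12 and Pcdh19 lie at -1.45, -1.30 and -1.82 and Pcdh17 at 0.03. Pcdh9 passed the filter only through its type III values.

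The order of the 5 members within a type changed accordingly. In type I ECs Pcdh1 stood first, Pcdh12 (25.3 and 18.9) and Pcdh17 (21.2 and 21.4) overlapped next, and Pcdh19 and then Pcdh7 followed without overlap. In type II ECs Pcdh1 led Pcdh17, Pcdh7 (11.3 and 19.0) overlapped with Pcdh12 (12.1 and 12.3), and Pcdh19 was last. In type III ECs Pcdh7 led, Pcdh1 (22.7 and 26.6) overlapped with Pcdh17 (18.5 and 25.4), and Pcdh12 and Pcdh19 followed. The summed FPKM of the 5 was 132 and 118 in type I, 94.0 and 99.7 in type II and 92.1 and 110 in type III ECs, so types II and III overlapped in the total. Of that total Pcdh7 held 1.14% and 0.480% in type I, 12.0% and 19.0% in type II and 42.3% and 43.5% in type III ECs. Pcdh1 held 52.7% and 58.0%, 41.7% and 39.7%, and 24.7% and 24.2%. The ratio of Pcdh7 to Pcdh1 was 0.0217 and 0.00828 in type I, 0.287 and 0.479 in type II and 1.72 and 1.80 in type III ECs. These shares contain the values that chose Pcdh7 and are given without a test.

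**Figure D3:**
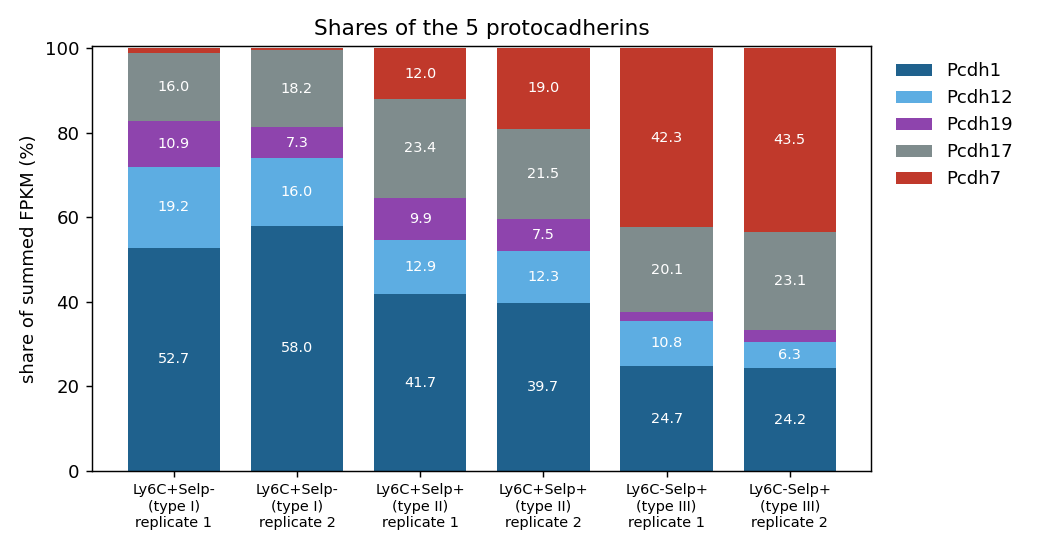
Share of each of the 5 members in their summed FPKM (percent, linear axis from 0), for each of the 6 libraries. Pcdh7 takes 1.14% and 0.480% of the total in type I ECs and 42.3% and 43.5% in type III ECs, where Pcdh1 takes 24.7% and 24.2%.

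The remaining non-clustered protocadherins were at low levels. Pcdh9, of the same subgroup as Pcdh7, was at 0.182 and 0 in type I, 0.636 and 0.498 in type II and 2.25 and 1.23 in type III ECs. Its types did not overlap, but it rested on at most 26 fragments, and the log2 difference of 1.31 between type III and type I ECs did not pass (95% interval 0.40 to 2.22, limma adjusted p = 0.14). Pcdh9 reached an FPKM of 1 only in type III ECs, so it passed the filter through the type where it was highest. Nothing is read from its test or interval. Pcdh18 was at 1.92 and 1.39 in type I and 1.79 and 0.625 in type III ECs (log2 difference -0.31, adjusted p = 0.83). Pcdh10, Pcdh15 and Pcdh20 stayed below an FPKM of 1 in every library and were not tested, and Pcdh8 and Pcdh11x were listed at 0 in all 6. Of the 12 non-clustered protocadherins 7 were thus tested.

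The clustered protocadherins gave no call, which among 32 genes is near the share of all genes. Of 60 genes 32 were tested, and 0 passed in any comparison (limma, against 4.14%, 0.393% and 0.222% of all genes; 2 had an unadjusted p below 0.05 in type III against type I ECs and 0 in the others, and 0 passed with the replicate number as a block). Their median difference between type III and type I ECs was -0.03, with single genes between -1.07 and 0.81, against a median of 0.08 over all genes tested. Their summed FPKM was 98.8 and 110 in type I, 108 and 94.9 in type II and 91.5 and 104 in type III ECs, of the same size as the sum of the 5 members. Pcdhgc3, named after its values had been seen as the most abundant, was at 30.7 and 24.5 in type I, 18.9 and 21.2 in type II and 19.7 and 27.3 in type III ECs. These genes share exons and resemble one another, so how their fragments were divided is uncertain.

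Other cadherins and their partners were set beside the protocadherins. Of 8 classical and related cadherins tested, 1 fell between type I and type III ECs (2.05% of all genes passed as lower). This was Cdh13 (T-cadherin, a membrane-anchored cadherin without a cytoplasmic tail that binds adiponectin), at 111 and 128 in type I, 82.3 and 73.4 in type II and 32.0 and 43.5 in type III ECs (log2 difference -1.65, SE 0.25, limma adjusted p = 0.0065). Its call was lost without type III replicate 1 (-1.43, adjusted p = 0.071), and with the replicate number as a block its difference between type III and type II ECs of -1.04 also passed (adjusted p = 0.041, from 0.16). Cdh5 (VE-cadherin), the main endothelial junction cadherin, was at 632 and 595 in type I, 448 and 436 in type II and 414 and 486 in type III ECs. Its difference between type III and type I ECs did not pass (-0.45, limma adjusted p = 0.43). It passed in 1 of the 14 alternatives, over which it ranged from -0.72 to -0.34. Cdh2 (N-cadherin), the partner of Pcdh19, was at 5.08 and 2.47 in type I, 4.91 and 2.54 in type II and 3.50 and 4.07 in type III ECs, with overlap throughout. Cdh4 was at 0.881 and 0.457 in type I, 1.77 and 2.58 in type II and 2.75 and 4.50 in type III ECs. Its types did not overlap, but the type I values rested on 17 and 11 fragments. Its difference of 1.46 between type III and type I ECs did not pass (limma adjusted p = 0.078) but did with the replicate block (adjusted p = 0.04). The median of the 8 was 0.01.

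Celsr1, a planar cell polarity cadherin with a role in vein and lymphatic valves, was the 1 of 4 giant and seven-pass cadherins that rose (2.09% of all genes passed as higher). It was at 0.704 and 0.423 in type I, 2.51 and 3.91 in type II and 5.81 and 9.08 in type III ECs, a ratio of 13.2 between the means of type III and type I ECs (log2 difference 2.41, SE 0.37, limma adjusted p = 0.0069). The types did not overlap in Celsr1. Of the lymphatic markers Prox1, Lyve1 and the untested Reln were higher in type III ECs as well, Flt4 was lower and Pdpn overlapped. The part of lymphatic cells in the level of Celsr1 was not tested. Its call was lost without type I replicate 2 (2.28, adjusted p = 0.059) or type III replicate 2 (2.13, adjusted p = 0.062). Fat4, a large cadherin of tissue polarity and growth control, was at 17.8 and 22.6 in type I, 13.6 and 15.5 in type II and 7.44 and 11.2 in type III ECs. It did not pass (-1.05, adjusted p = 0.10) but did with the replicate number as a block (adjusted p = 0.017).

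Catenins link cadherins to the cytoskeleton, and 1 of the 6 tested fell between type I and type III ECs (2.05% of all genes passed as lower). Jup (plakoglobin) was at 55.7 and 50.7 in type I, 18.9 and 15.0 in type II and 8.32 and 5.92 in type III ECs, 7.47-fold lower in type III than in type I ECs (log2 difference -2.75, SE 0.28, limma adjusted p = 0.00078). Its difference of -1.60 between type II and type I ECs did not pass (adjusted p = 0.057) but did with the replicate block (adjusted p = 0.0085) and under the 3 scalings (adjusted p = 0.021 to 0.024). That of -1.15 between type III and type II ECs did not pass either (adjusted p = 0.16), but did with the block (adjusted p = 0.032), with the same summed FPKM (adjusted p = 0.036) and with quantile normalization (adjusted p = 0.041). Ctnnb1 (beta-catenin, -0.33), Ctnna1 (alpha-catenin, 0.10) and Ctnnd1 (the catenin that stabilises cadherins at the membrane, 0.01) did not pass. Of the WAVE regulatory complex 0 of 10 genes passed in any comparison (limma, against 4.14%, 0.393% and 0.222% of all genes). Among so few genes this is near the share of all genes. In type III against type I ECs 2 had an unadjusted p below 0.05, and 0 in the others. The median was 0.19 in type III against type I ECs. Of the other protocadherin partners 0 of 6 passed, again near that share (unadjusted p below 0.05 for 1 in type III against type I ECs), with a median of 0.22. Among them, Ppp1ca, the phosphatase that binds Pcdh7, was at a log2 difference of 0.03 (adjusted p = 0.98), Set, its other partner, at 0.57 (adjusted p = 0.60) and Smad3, the partner of Pcdh1, at 0.91 (adjusted p = 0.17).

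The genes nearest to each member in profile over the 6 libraries were found by the distance between centred log2(FPKM + 1) values, among 7415 genes. Nearest to Pcdh7 were Lrg1, a secreted glycoprotein that modifies TGF-beta signalling (distance 0.76, mean FPKM 46.7, 322 and 672 in type I, II and III ECs), Tgfbi, a TGF-beta-induced matrix protein (0.79, means 7.13, 60.8 and 165), and Lbp, the lipopolysaccharide-binding protein (0.92, means 0.686, 12.8 and 22.9). Bst1, a surface ectoenzyme (0.93, means 1.36, 13.7 and 49.5), and Ctnnal1, an alpha-catenin relative (1.03, means 2.27, 15.1 and 37.4), followed. The first and the last have Pearson's r of 0.996 and 0.995 with Pcdh7 over the 6 libraries, which fall into 3 types, so these are descriptions. Of the 5, all remained nearest when the libraries were rescaled by median-of-ratios factors, and 2, Lbp and Tgfbi, with a pseudocount of 0.1; these checks were added after the values had been seen.

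Nearest to Pcdh1 were Lipe, the hormone-sensitive lipase (0.18, means 39.7, 24.1 and 14.6), Dusp1, a phosphatase of MAP kinases (0.23), and Ccdc85a (0.25). Nearest to Pcdh12 were Epha4, an ephrin receptor (0.21, means 6.95, 3.07 and 2.15), Timeless (0.26) and St5 (0.28). Nearest to Pcdh19 were Avpr1a, a vasopressin receptor (0.35, means 7.25, 5.72 and 1.55), Pdgfrb (0.37) and Arhgef17 (0.37). Pdgfrb belongs to the pericyte and smooth muscle markers. In the plot of centred profiles it stands beside Pcdh19 with the others of that list that fell, Kcnj8, Notch3 and Abcc9. Of those not plotted, Rgs5, Cspg4 and Des had lower means in type III than in type I ECs, and Acta2 and Myh11 higher means. Pdgfrb dropped out of the 3 nearest under both rescalings and stayed among them with a pseudocount of 0.1. Nearest to Pcdh17 were Stk40 (0.09), the chromatin remodeller Smarca4 (0.11) and Rere (0.14), all at nearly 1 level across the types.

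**Figure D4:**
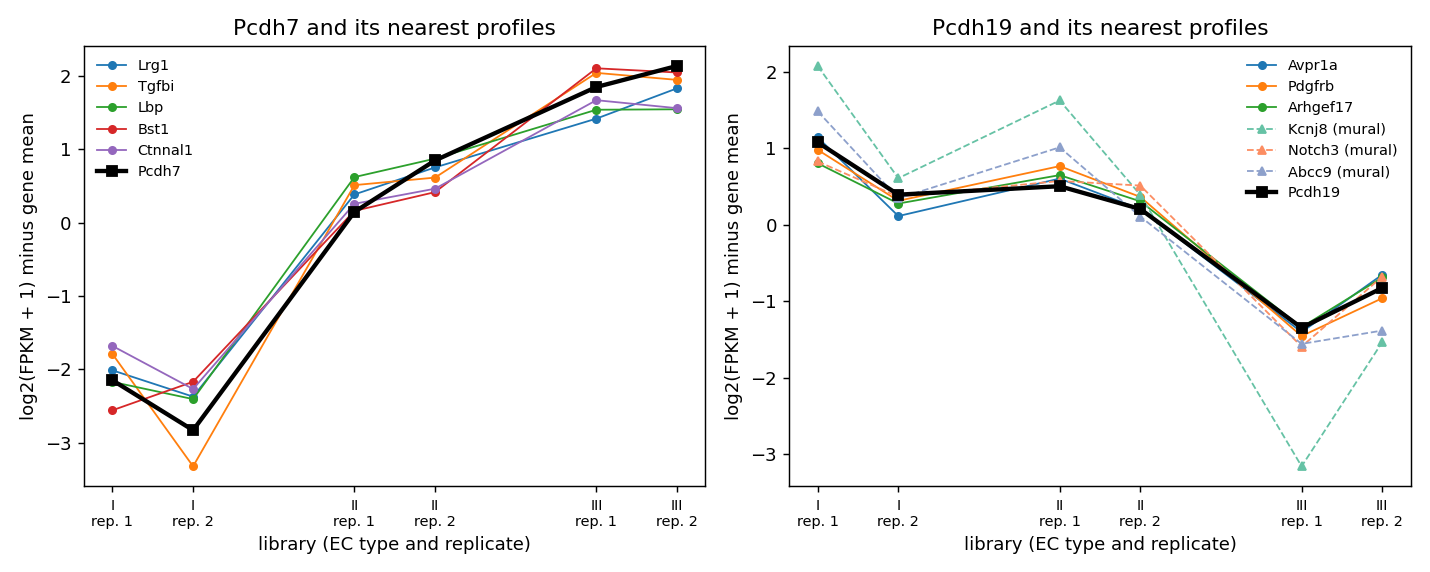
Centred profiles, log2(FPKM + 1) minus the gene's mean over the 6 libraries, of Pcdh7 and its 5 nearest genes, and of Pcdh19 and its nearest genes with the mural (pericyte) markers Kcnj8, Notch3 and Abcc9 dashed. The lines of Lrg1 and Tgfbi, at distances of 0.76 and 0.79, run closest to Pcdh7. The type III values of Pcdh19, Kcnj8, Notch3 and Abcc9 lie below their type I values. These markers are drawn because they fell, and 4 of the 9 listed markers did.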

How the data were processed

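RNA-seq was made from sorted thymic ECs with a kit whose strandedness is not stated. Per the labels and methods, the authors used CASAVA 1.8, TopHat2 2.0.10 on mm9 and Cufflinks 2.1.1. The deposited FPKM are per gene and library, with 95% intervals, not rescaled between libraries; the gene annotation is not given in the sources used here. Cuffdiff, which the authors used for their comparisons, needs reads and was not run.

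Values were taken as log2(FPKM + 1). Genes reaching an FPKM of 1 in 2 or more libraries (11717) were tested with limma 3.58.1 (R 4.3.3, trend), all 6 libraries in 1 fit, with Benjamini-Hochberg adjustment and a threshold of 0.05. Scripts were tested on simulated data. Fragments were read back from the intervals, assuming counting error alone; intervals and fragments cover counting error only. Same-numbered replicates deviated together (correlations 0.199, 0.306 and 0.180 between types). The main fit did not pair them, so its p-values and intervals are unpaired. The labels' replicate numbers entered as a block in an alternative fit only. With the block, 971, 183 and 229 genes passed instead of 485 (type III against I), 46 (II against I) and 26 (III against II).

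The members and gene lists were chosen with earlier results of these data known. Named genes are the members, listed genes past the threshold, the sort genes, and the nearest 5 profiles of Pcdh7 and 3 of each other member, among tested genes whose highest type mean reached an FPKM of 5. Alternatives were other pseudocounts, filters and scalings, no trend, only the compared libraries, the block, and each library left out. Gene structure came from GENCODE on mm9.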

Additional observations from a re-analysis of the deposited data

How the results depend on the processing

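Under the 14 alternatives the differences of Pcdh7, Pcdh1, Pcdh12 and Pcdh19 kept their direction in all 3 comparisons. That of Pcdh17 between type III and type I ECs, which passed in none, went from 0.03 to -0.12 with the same summed FPKM in each library, to -0.07 with median-of-ratios factors and with quantile normalization, and to -0.19 without type III replicate 2 (-0.19 to 0.24 with 1 library left out). The genes past the threshold were 485 in type III against type I ECs, 317 with no filter on low values, 971 with the replicate block and 209 to 404 with 1 library left out. The lower calls among them were 240, against 425, 377 and 380 under the 3 scalings, 456 with the block, and 113, 131, 99 and 110 without type I replicate 1, type I replicate 2, type III replicate 1 and type III replicate 2. The share of higher calls was 50.5%, 41.5% with the same summed FPKM and 67.2% without type I replicate 1. In type II against type I ECs they were 46, and 12 with no filter, 102 with the same summed FPKM in each library, 95 with median-of-ratios factors, 103 with quantile normalization, 183 with the block, 15 with no trend, 29 with only the libraries compared and 12 to 33 with 1 left out. In type III against type II ECs they were 26, and 0 with no filter (limma; 1354 of 16624 genes at an unadjusted p below 0.05), 126, 84 and 90 under the 3 scalings, 229 with the block, 10 with no trend, 7 with only the libraries compared and 2 to 14 with 1 left out. In that comparison 42.3% of the calls were higher, against 22.2%, 27.4% and 24.4% under the 3 scalings, 54.1% with the block and 22.2% with a pseudocount of 0.1. In type II against type I ECs the share was 82.6%, against 72.5%, 69.5% and 70.9% under the scalings and 54.1% with the block. The same summed FPKM moved the median of all genes from 0.08 to -0.04 in type III against type I ECs and from 0.14 to -0.05 in type III against type II ECs. The causes were not tested.

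Among members, the difference of Pcdh7 between type III and type I ECs was 5.39 with a pseudocount of 0.1 and 4.14 to 4.82 with 1 library left out. Pcdh1 ranged from -1.56 to -1.34 with 1 left out. Pcdh12 stayed at -1.30 but lost its call with no filter (adjusted p = 0.083), no trend (0.073) and only the libraries compared (0.080), and ranged from -1.53 to -1.06 with 1 left out. Pcdh19 lost its call with no filter (-1.82, adjusted p = 0.074) and ranged from -2.17 to -1.48, and its difference between type III and type II ECs passed with the same summed FPKM (-1.62, adjusted p = 0.049). The replicate block changed no member's call. A library alone in its type was assumed to vary like the other types. Outside the members, differences that passed in no setting also changed direction. Between type II and type I ECs, Notch3 (-0.05) went to 0.02 with the same summed FPKM and 0.04 with quantile normalization, and Pdgfrb (-0.08) to 0.02 with quantile normalization; with 1 library left out Notch3, Pdgfrb, Abcc9 and Kcnj8 reached 0.18, 0.25, 0.22 and 0.40, from lowest values of -0.29, -0.42, -0.92 and -1.07. Between type III and type II ECs, Cdh5 (0.02) went to -0.21, -0.13 and -0.35 under the 3 scalings and -0.10 to 0.14 with 1 left out. Pcdh18 between type III and type I ECs ranged from -0.70 to 0.08 with 1 left out. Values near 3 fragments, as for Pcdh9 in type I, are limited by depth.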
